A study of Mus musculus with 9 samples.

Results

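The transcripts of 9 carbonic anhydrase genes, among them Car3, were followed in sorted proximal tubular cells of diabetic and control mice: Car2, Car3, Car4, Car5b, Car8, Car12, Car13, Car14 and Car15. They were taken by symbol from the 24421 genes of the deposited table, and a further 7 family members in it (Car1, Car5a, Car6, Car7, Car9, Car10 and Car11) were kept as a comparison list. The choice was made with the library-scaled counts of the 3 groups in view, so the levels and fold changes of the 9 genes are given as a description. Where the fit over all genes called one of them, the call is counted beside the share of all genes called, and nothing is supported with it. All 9 passed the filter on low values, together with 15583 genes in all. Their values were read against the share of all tested genes that behaved alike.

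Carbonic anhydrases interconvert carbon dioxide and bicarbonate. In the proximal tubule, where most filtered bicarbonate is reclaimed, isoforms of the brush border, the basolateral membrane, the cytosol and the mitochondria work beside the sodium-proton exchanger NHE3 (Slc9a3) and the sodium-bicarbonate cotransporter NBCe1 (Slc4a4). Within the family, Car3 stands apart by its weak catalytic activity and its high abundance in skeletal muscle, fat and liver, and Car8 has lost the catalytic zinc site and binds the IP3 receptor Itpr1.

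All mice were C57BL/6 and carried an inducible Cre in the Slc34a1 locus (SLC34a1GCE) and the R26tdTomato reporter, so that tamoxifen, given from 8 weeks of age, labeled proximal tubular cells. The groups were db/m mice, non-diabetic heterozygotes of the leptin receptor mutation Lepr db, db/db mice, diabetic homozygotes that received vehicle, and db/db-dapa mice, called treated mice here, homozygotes that received the SGLT2 inhibitor dapagliflozin at 1.5 mg/kg/day in drinking water for 8 weeks. Each group held 3 mice, and each library came from the sorted tdTomato-positive cells of the kidney cortex of 1 mouse. The label marks cells in which Slc34a1 was active at the time of tamoxifen, and the sample labels name the tissue only as kidney. The treated mice entered 2 comparisons, as did the db/db and the db/m mice, so the comparisons share samples.

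The counts of a library summed to between 2733349 (db/db replicate 1) and 9033123 (treated replicate 3), and 3 counts corresponded to between 0.339 and 1.02 CPM, the unit in which a count is given relative to the scaled library. The summed level of 9 proximal tubule markers was 12900 to 14000 CPM in db/m, 16700 to 19500 in db/db and 17800 to 21800 in treated mice. Markers of other nephron segments were present as well: the 5 thick ascending limb markers summed to between 349 and 1650 CPM over the 9 mice, and the 8 intercalated cell markers to between 89.0 and 389 CPM. In bulk RNA, fewer cells of a type and less RNA per cell cannot be told apart. Among tissues known for Car3, adipocyte markers summed to at most 23.8 CPM with Adipoq, Cfd, Retn and Lep at 0 in all mice, and skeletal muscle markers to at most 0.888 CPM with Myh4 and Myh1 at 0. Hepatocyte markers summed to 2560 to 3310 CPM in db/m, 675 to 1730 in db/db and 1740 to 2330 in treated mice, with Cps1 at 0 in all mice. This sum was almost wholly Cyp2e1, with means of 2887, 1206 and 1980 CPM in these groups, whereas those of Alb were 22.2, 34.1 and 45.9 CPM and those of Serpina1a 3.63, 23.7 and 22.4 CPM. Their part in the level of Car3 was not tested.

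Car3, Car2, Car1 and Car13 lie together on chromosome 3 within 259.0 kb of GRCm38 (mm10), and the start of Car2 is 22.8 kb from that of Car3. Because 2 neighbors of such a cluster can be confused by short reads, their coding sequences were compared. Over the aligned coding sequence Car3 shared 64.2% of its bases with Car2, 64.4% with Car1 and 63.2% with Car13. The longest run identical with Car3 was 14 bases in Car2, 20 in Car1 and 9 in Car13. The same 60-base stretch of the 4 coding sequences is shown to let this be seen, with the 36 positions that are identical in all 4 in capitals.
Car3: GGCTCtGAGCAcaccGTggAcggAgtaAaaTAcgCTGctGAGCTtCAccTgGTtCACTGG
Car2: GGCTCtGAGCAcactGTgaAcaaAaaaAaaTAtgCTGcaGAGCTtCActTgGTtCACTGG
Car1: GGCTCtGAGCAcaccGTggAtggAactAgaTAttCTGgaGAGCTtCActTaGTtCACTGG
Car13: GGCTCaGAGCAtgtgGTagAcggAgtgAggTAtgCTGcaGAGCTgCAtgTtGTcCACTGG
Even in this conserved stretch each of the other genes differs from Car3 at several positions, although Car1 matches Car3 over its first 20 bases. Of all stretches of 101 bases, the length of the reads, that the annotated transcripts of Car2, Car3, Car4, Car5b, Car8, Car12 or Car13 contain, 0 also occurred in a transcript of another gene.

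Among the cytosolic isoforms, Car3 was lowest in db/db and highest in treated mice, and the 3 groups did not overlap. Car3 lies on chromosome 3 from 14863512 to 14872523, on the plus strand. Its level was 104, 63.3 and 65.3 CPM in db/m replicates 1, 2 and 3, 44.9, 47.0 and 21.1 CPM in db/db mice, and 262, 127 and 121 CPM in treated mice. Each db/db mouse was thus below each db/m mouse, and each treated mouse was above every mouse of the other 2 groups, with replicate 1 highest by far. The means were 77.7 ± 23.2, 37.7 ± 14.4 and 170 ± 79.5 CPM (SD, n = 3 each). On the log2 scale the fitted difference was -1.06 (standard error 0.37) in db/db against db/m mice and 1.13 (standard error 0.36) in treated against db/m mice. Between treated and db/db mice it was 2.19 (standard error 0.38), at percentile 99.3 of all tested genes. With single mice left out this last difference ranged from 1.74, without treated replicate 1, to 2.40, without db/db replicate 2. The difference against db/m mice rested more on treated replicate 1, without which it was 0.68. Between treated and db/db mice this was the largest difference of the 9 genes.

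Car2, the fast cytosolic enzyme and the most abundant isoform, had its lowest mean in db/m and its highest in treated mice. It lies on chromosome 3 from 14886273 to 14900770, on the plus strand. Its level was 536, 621 and 441 CPM in db/m, 843, 854 and 568 CPM in db/db, and 895, 990.2 and 857 CPM in treated mice. Under the TMM scaling used here each treated mouse was above each mouse of the other groups, by 857 against 854 CPM at the closest. By plain library totals the diabetic groups overlapped. Car2 had 2481 of 2733349 counts in db/db replicate 1, a larger share than the 7578 of 9033123 in treated replicate 3. The level of db/db replicate 3 was within the range of db/m mice. The fitted log2 difference was 0.50 (standard error 0.21) in db/db against db/m, 0.78 (standard error 0.21) in treated against db/m and 0.28 (standard error 0.21) in treated against db/db mice. Between the diabetic groups the means, 755 ± 162 and 914 ± 68.6 CPM (SD, n = 3 each), differed by less than the SD of db/db mice.

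Car13, the third cytosolic isoform of the cluster, was near the limit of detection. It lies on chromosome 3 from 14641727 to 14663002. Its level was 1.73, 4.01 and 1.11 CPM in db/m, 2.72, 1.40 and 1.26 CPM in db/db, and 2.41, 2.63 and 2.26 CPM in treated mice, from 5 to 23 counts per library. All 3 groups overlapped, and the log2 differences of -0.44, 0.07 and 0.51 had standard errors of 0.51 to 0.55. Car1, the cluster's remaining gene, had 2 counts in db/m replicate 1 and 0 elsewhere. The 4 neighboring genes thus differed widely in level, and their fold changes differed as well.

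**Figure D1:**
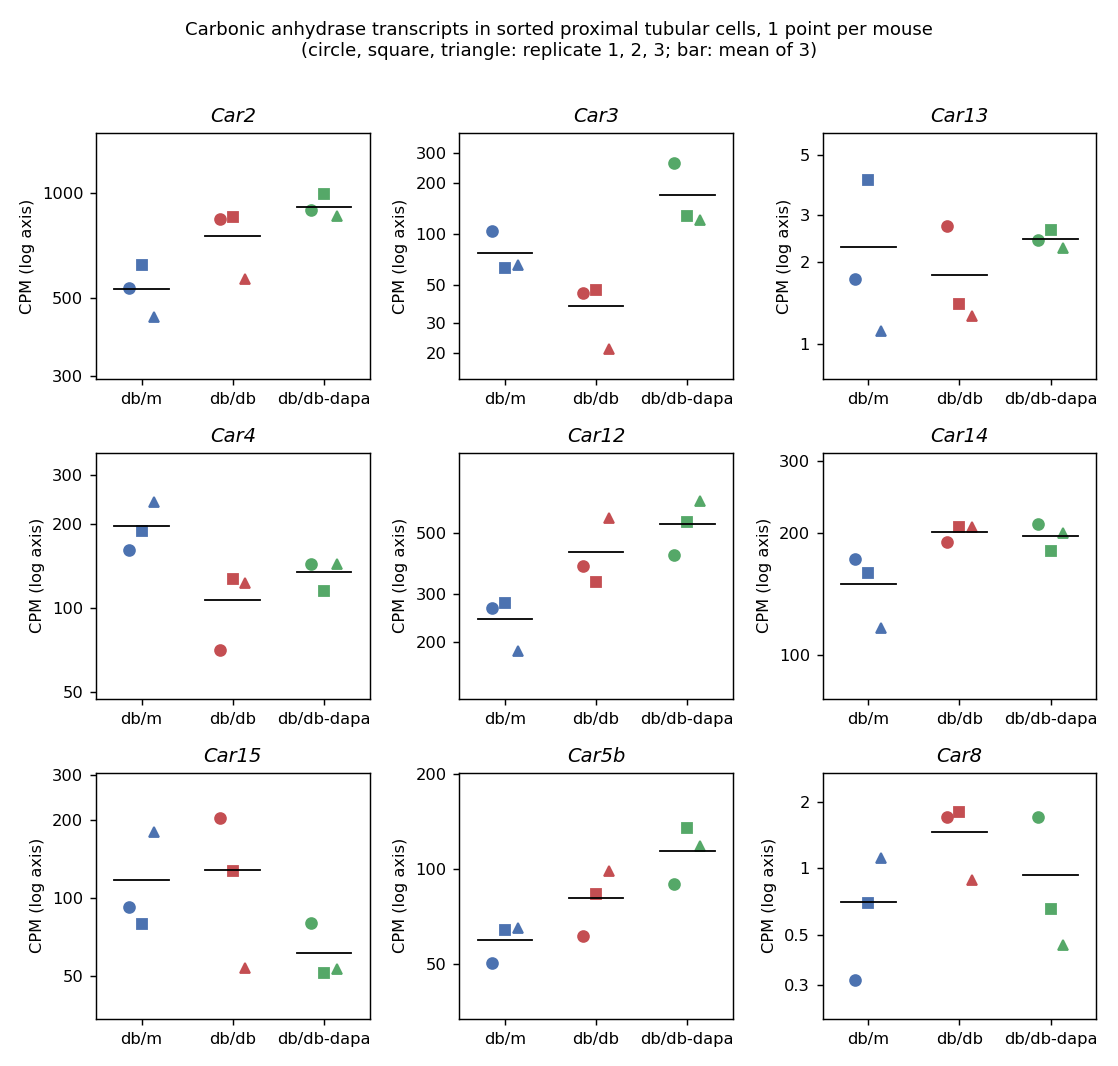
Level of the 9 carbonic anhydrase genes in each mouse, in CPM on a log axis that differs between panels, with the mean of each group as a bar and replicates 1, 2 and 3 as circle, square and triangle. The treated mice (db/db-dapa on the axes) lay above all other mice for Car3 (121 to 262 CPM) and below all db/m mice for Car4. For Car2 (857 to 990.2 CPM) they lay above all others by a narrow margin that did not hold by plain library totals.

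Of the membrane isoforms, Car4 was lower in both diabetic groups than in db/m mice. Car4 is held by a lipid anchor on the luminal and basolateral membranes of the proximal tubule, and lies on chromosome 11 from 84957786 to 84966044. Its level was 162, 189 and 241 CPM in db/m, 70.7, 127 and 123 CPM in db/db, and 144, 115 and 144 CPM in treated mice. The lowest db/m mouse was above the highest of the 6 diabetic mice. The fitted log2 difference was -0.88 (standard error 0.24) in db/db and -0.55 (standard error 0.24) in treated mice, each against db/m mice. Between the diabetic groups it was 0.33 (standard error 0.24), and the groups overlapped. The summed level of 7 markers of the S3 segment, the last part of the proximal tubule, was also lower in both diabetic groups, at 7110 to 8810 CPM in db/m, 2040 to 5130 in db/db and 4100 to 5500 in treated mice. Slc27a2 and Acy3 made up most of this sum, and the means of Slc5a8 went the other way, from 252 CPM in db/m to 273.5 in db/db and 426 in treated mice. Their part in the level of Car4 was not tested.

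Car12, a transmembrane isoform with an extracellular active site, was higher in both diabetic groups than in db/m mice. It lies on chromosome 9 from 66713686 to 66766845, on the plus strand. Its level was 266, 278 and 186 CPM in db/m, 377, 331.5 and 564 CPM in db/db, and 416, 546 and 651 CPM in treated mice. All 6 diabetic mice were above all 3 db/m mice, and the diabetic groups overlapped. The fitted log2 difference was 0.80 (standard error 0.25) in db/db against db/m mice and 0.34 (standard error 0.25) between the diabetic groups. In treated against db/m mice it was 1.14 (standard error 0.25), and this was the 1 difference among the 9 genes to pass both thresholds, an adjusted p below 0.1 and a log2 fold change beyond 1 in either direction, in edgeR's quasi-likelihood test. A share of 1.05% of all genes passed in that comparison, and the gene was chosen with these values known. The difference no longer passed when any 1 of the db/m mice, treated replicate 2 or treated replicate 3 was left out, with values of 0.98 to 1.3 over all mice left out. It did not pass with the replicate block either, and the other scalings, filters and tests, the block included, gave values of 1.09 to 1.18. With the transcript-length balance of the libraries as a covariate, described further on, Car12 differed less from db/m mice. The log2 difference was then 0.38 in db/db and 0.56 in treated mice.

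Car14 and Car15 complete the membrane isoforms, and both share annotated exon sequence with another gene. Car14, a transmembrane isoform of the proximal tubule, lies on chromosome 3 from 95897768 to 95904691, outside the cluster and on the minus strand. Its level was 173, 159.5 and 117 CPM in db/m, 189.7, 206 and 207 CPM in db/db, and 209.9, 180.2 and 199 CPM in treated mice. Both diabetic groups lay above db/m mice and overlapped each other, with log2 differences of 0.42, 0.39 and -0.03 (standard error 0.18 each). The spread within the diabetic groups was the smallest of the 7 well expressed genes, with an SD of 9.73 CPM in db/db and 15.1 CPM in treated mice. Of its exon bases 17.5% overlap Aph1a on the other strand, which can affect the count if strand was not used, and whether it was used is not given in the sources used here.

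Car15, an isoform held by a lipid anchor, was the 1 membrane isoform with a lower mean in treated than in db/db mice beyond a log2 difference of 1. It lies on chromosome 16 from 17835276 to 17838364, on the minus strand. Its level was 92.1, 79.2 and 179.8 CPM in db/m, 204, 127 and 53.9 CPM in db/db, and 80.1, 51.3 and 53.2 CPM in treated mice. The spread in db/m and db/db mice was wide, and the treated mice overlapped both groups. The fitted log2 difference was 0.12 (standard error 0.43) in db/db against db/m, -0.93 (standard error 0.43) in treated against db/m and -1.05 (standard error 0.43) in treated against db/db mice. The first of these changed sign in 3 of the 9 fits that left out a mouse, the second was -0.49 without db/m replicate 3, and the third was -0.56 without db/db replicate 1. With the transcript-length balance of the libraries as a covariate, described further on, the second turned to 0.25. The intercalated cell markers moved with Car15, at 213, 129 and 389 CPM in db/m, 291, 167 and 154 CPM in db/db, and 148, 112 and 89.0 CPM in treated mice. This was not particular to them, and other distal markers had a like pattern in the same order of mice. Principal cell markers were at 417, 261 and 836, at 542, 316 and 268, and at 285, 160 and 217 CPM. Those of the distal convoluted tubule were at 408, 293 and 891, at 673, 486 and 372, and at 406, 366 and 336 CPM. Thick ascending limb markers were less alike, at 960, 806 and 1650, at 1090, 349 and 523, and at 527, 432 and 538 CPM. They were lowest in db/db replicate 2. The part of these markers in the result was not tested. Of the exon bases of Car15, 65.7% lie within Gm20518 on the same strand, a gene without a row in the table, so the count of Car15 is uncertain.

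Car5b, a mitochondrial isoform, had its lowest levels in db/m and its highest in treated mice. It lies on chromosome X from 163976822 to 164027997, on the minus strand. Its level was 50.2, 63.9 and 65.1 CPM in db/m, 61.2, 83.6 and 98.6 CPM in db/db, and 89.4, 135 and 118.5 CPM in treated mice. The treated mice lay above all db/m mice and overlapped db/db mice, which overlapped db/m mice. The fitted log2 difference was 0.45 in db/db against db/m, 0.94 in treated against db/m and 0.49 in treated against db/db mice (standard error 0.22 each). Car5a, the mitochondrial isoform known from liver, was at most 0.788 CPM in any mouse.

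Car8, the isoform without catalytic activity, was at 0.315, 0.698 and 1.11 CPM in db/m, 1.70, 1.80 and 0.884 CPM in db/db, and 1.70, 0.656 and 0.453 CPM in treated mice. It lies on chromosome 4 from 8143362 to 8239041. With 2 to 12 counts per library all groups overlapped, the standard errors of the log2 differences were 0.68 to 0.72, and a difference was not detectable at this depth. The IP3 receptor that Car8 binds, Itpr1, was well expressed, at 196 ± 43.6 CPM in db/m, 361 ± 194 in db/db and 425 ± 126 in treated mice (SD, n = 3 each).

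Of the 9 genes, 0, 1 and 0 passed both thresholds in db/db against db/m, treated against db/m and treated against db/db mice, where 1.24%, 1.05% and 0% of all tested genes did (edgeR's quasi-likelihood test). Unadjusted p-values lay below 0.05 for 5, 6 and 3 of the 9 and for 13.7%, 18.2% and 5.19% of all genes. With DESeq2, 0, 2 (Car3 and Car12) and 1 (Car3) of the 9 passed, and with limma on log2(CPM + 1) 0, 1 (Car12) and 0 did. Groups that did not overlap were found for 4 of the 9 genes in db/db against db/m mice (Car3 and Car4 lower, Car12 and Car14 higher), beside 16.4% of all genes. There were 6 in treated against db/m mice, with Car2, Car3, Car5b, Car12 and Car14 higher and Car4 lower, beside 28.1% of all genes. Between the diabetic groups there were 2, Car2 and Car3, both higher in treated mice, beside 10.2% of all genes. For Car2 the groups overlapped by plain library totals. The genes had been chosen on these values, and nothing is read from these counts. The median log2 difference over the 9 genes was 0.42, 0.42 and 0.33 in the 3 comparisons, beside 0.02, -0.02 and -0.01 over all genes.

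**Figure D2:**
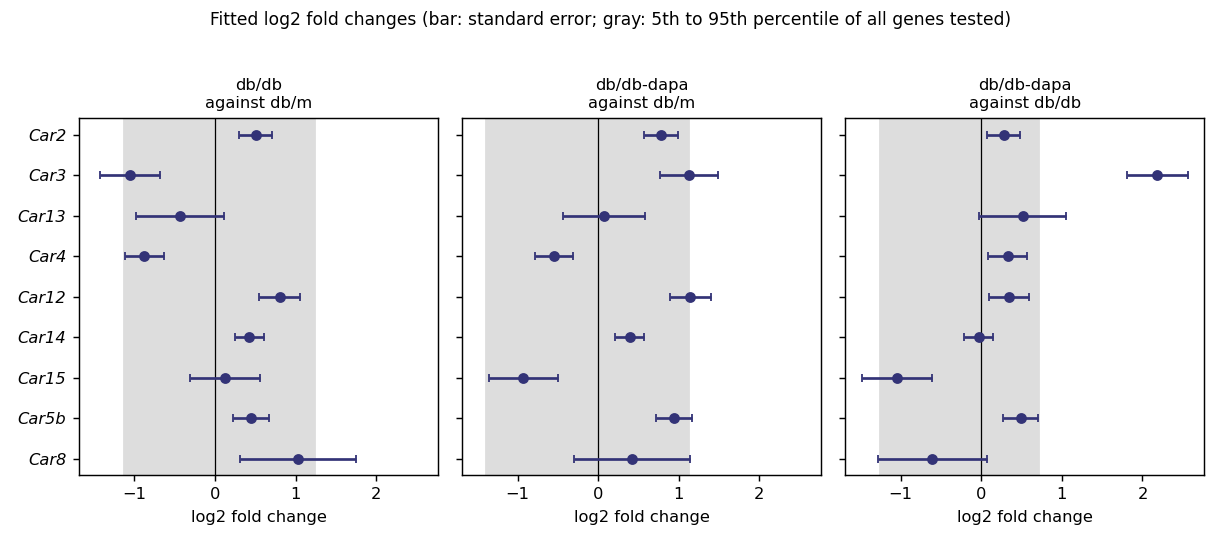
Fitted log2 fold change of each of the 9 genes in the 3 comparisons, with the standard error as a bar and the 5th to 95th percentile of all 15583 genes tested in gray. Between treated and db/db mice Car3, at 2.19, lay far to the right of the gray band, and the other 8 genes lay within it.

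To compare genes with each other, levels were divided by the length of the longest annotated transcript. Per kilobase and as the mean of all mice, Car2 came first at 410.5 CPM per kilobase, followed by Car4 at 116, Car12 at 108, Car14 at 107, Car15 at 79.7, Car3 at 56.6 and Car5b at 24.8. Car4, Car12 and Car14 did not differ beyond their spread over mice (SD 38.4, 42.0 and 17.5 CPM per kilobase), and with the mean transcript length in place of the longest Car12 and Car14 changed places. The order differed between groups: Car4 came next after Car2 in db/m mice at 157 CPM per kilobase but below Car14, Car12 and Car15 in db/db mice at 85.1, and Car3, at 101 in treated mice, was there above Car15 at 48.0. Car9 followed in the mean of all mice at 9.06 CPM per kilobase, and the other genes were at 1.65 CPM per kilobase or lower, with Car13 at 0.944 and Car8 at 0.269.

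The sum of all 16 family members per kilobase was 777 ± 19.8 CPM per kilobase in db/m, 898 ± 98.6 in db/db and 1071 ± 30.4 in treated mice (SD, n = 3 each). The sums of treated mice, 1046 to 1105, lay above those of db/m mice, 765 to 800.0, and of db/db mice, 784 to 956. The separation from db/db mice depended on the TMM scaling, with factors of 1.08 in db/db replicate 1 and 0.979 in treated replicate 3. By plain library totals the sums of these groups overlapped. The summed proximal tubule markers were also lowest in db/m mice, at 12900 to 14000 CPM. They were at 16700 to 19500 CPM in db/db and 17800 to 21800 CPM in treated mice. Slc34a1, Lrp2 and Miox made up most of this sum. The mean of Slc22a6 was lower in db/db than in db/m mice, at 1348, 1084 and 1817 CPM in the 3 groups. The part of these markers in the family sum was not tested. Car2 made up 38.3%, 46.6% and 47.8% of the family sum in the 3 groups, while Car4 made up 20.2% in db/m and 9.66% in db/db mice. The share of Car3 was 5.97% in db/m, 2.44% in db/db and 9.37% in treated mice, where replicate 1 reached 14.1%. In db/db mice it was close to that of Car5b, 2.69%, and below it in replicate 3 alone, with 1.60% against 3.66%. In treated mice the share of Car3 was above that of Car15, 4.46%.

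**Figure D3:**
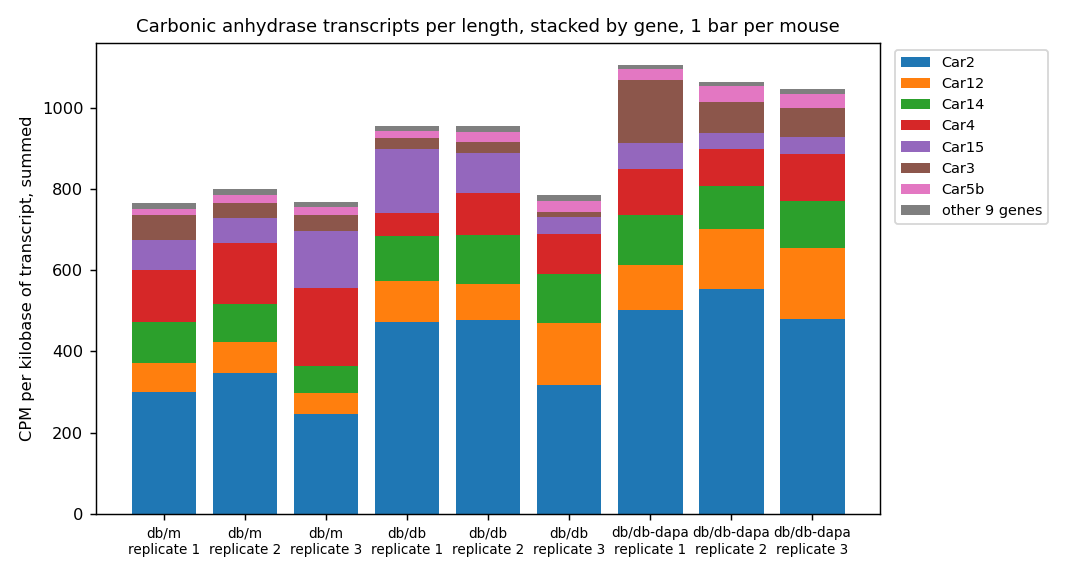
CPM per kilobase of transcript of the 16 carbonic anhydrase genes, stacked by gene, with 1 bar for each mouse. Car2 is the largest part of every bar, and Car3 is widest in treated replicate 1. The treated bars (1046 to 1105) are the tallest under the scaling used, but not all of them by plain library totals.

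Car12 and Car9 are known targets of the hypoxia-inducible factors (HIF), and the promoters of the members were searched for the HIF core letters, ACGTG or GCGTG on either strand. Promoter sequence, 250 bases before the RefSeq start site in GRCm38.p6, was held for 5 of the 9 genes: Car4, Car5b, Car12, Car14 and Car15. The core was present in 38.6% of 32851 promoters of this length. Car12 had 0 matches, Car4 and Car15 0, Car14 1 and Car5b 5, and Car9 had 1. The windows of Car12, which rose in treated against db/m mice, and of Car5b, with the most matches, are shown 5′ to 3′ on the gene's strand with the matches in capitals. That of Car12 is chr9:66713436-66713685 on the plus strand and that of Car5b chrX:164028011-164028260 on the minus strand.
Car12: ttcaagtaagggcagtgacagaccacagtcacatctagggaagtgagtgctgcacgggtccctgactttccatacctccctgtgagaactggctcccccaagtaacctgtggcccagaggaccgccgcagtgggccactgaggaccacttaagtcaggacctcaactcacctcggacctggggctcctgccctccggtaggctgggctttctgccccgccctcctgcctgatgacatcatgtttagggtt
Car5b: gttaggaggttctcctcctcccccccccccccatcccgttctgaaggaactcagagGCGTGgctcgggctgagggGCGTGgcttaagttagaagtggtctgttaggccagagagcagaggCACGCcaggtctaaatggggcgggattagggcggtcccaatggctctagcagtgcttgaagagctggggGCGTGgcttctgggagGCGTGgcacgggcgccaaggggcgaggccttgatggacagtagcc
The 5 matches of Car5b all read GCGTG on 1 of the strands. A match describes letters and not a binding site, and a window without one says nothing of sites elsewhere. In level, Car9, the other isoform known as a HIF target, was at 22.4, 25.1 and 16.0 CPM in db/m, 17.0, 18.2 and 19.3 CPM in db/db, and 15.6, 13.3 and 18.0 CPM in treated mice. These groups overlapped in all comparisons.

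Genes that work with carbonic anhydrases were examined in 4 lists, drawn up by their known roles: 24 transporters and proton pump subunits, 9 enzymes that use bicarbonate, 3 IP3 receptors and the 7 other carbonic anhydrases. Of these 43 genes 39 were tested. In edgeR's quasi-likelihood test 0 of them passed both thresholds in db/db against db/m, in treated against db/m or in treated against db/db mice. Unadjusted p-values lay below 0.05 for 4, 11 and 2 of the 39, beside 13.7%, 18.2% and 5.19% of all genes. DESeq2 passed 1, 4 and 0 of them, limma on log2(CPM + 1) 0 in each comparison, and limma with weighted mice 0, 5 and 2. The lists' median log2 difference was 0.08, 0.12 and 0.05.

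Among the transporters, Slc9a3 and Slc4a4 had higher means in both diabetic groups than in db/m mice, with wide spreads. Slc4a4 was at 686 ± 351 CPM in db/m, 1315 ± 957 in db/db and 1931 ± 585 in treated mice, and Slc9a3 at 20.6 ± 9.28, 75.2 ± 70.7 and 78.3 ± 30.3 CPM (SD, n = 3 each). Against db/m mice the log2 difference of Slc9a3 was 1.88 in db/db and 1.92 in treated mice (standard error 0.59 each), with adjusted p = 0.191 and 0.171 (edgeR's quasi-likelihood test). DESeq2 passed Slc9a3 in both comparisons and Slc4a4, Clcn5 and Itpr1 in the second. Slc4a4 (0.55, standard error 0.48) and the apical anion exchanger Slc26a6 (0.44, standard error 0.29) had the list's highest log2 differences in treated against db/db mice. The lowest was that of the proton pump subunit Atp6v1g1 (-0.61, standard error 0.27). The 2 groups overlapped for each of these 3 genes.

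Of the enzymes that use bicarbonate, 6 of 8 were higher in treated than in db/db mice, beside 48.7% of all tested genes. Acaca and Pcca, carboxylases of fatty acid synthesis and of propionyl-CoA breakdown, were highest, with log2 differences of 0.40 (standard error 0.30) and 0.39 (standard error 0.18). Acacb and Cad were lowest, with -0.42 (standard error 0.34) and -0.02 (standard error 0.30). The IP3 receptors Itpr1, Itpr2 and Itpr3 had log2 differences of 0.23, -0.59 and -1.11 (standard errors 0.35, 0.25 and 0.53). Among the other carbonic anhydrases Car5a and Car9 were highest (0.23 and -0.22), and Car11 and Car7, each at no more than 6.00 CPM in any mouse, were lowest (-1.01 and -0.93). The adjusted p of these 11 genes was 0.854 or higher (edgeR's quasi-likelihood test).

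**Figure D4:**
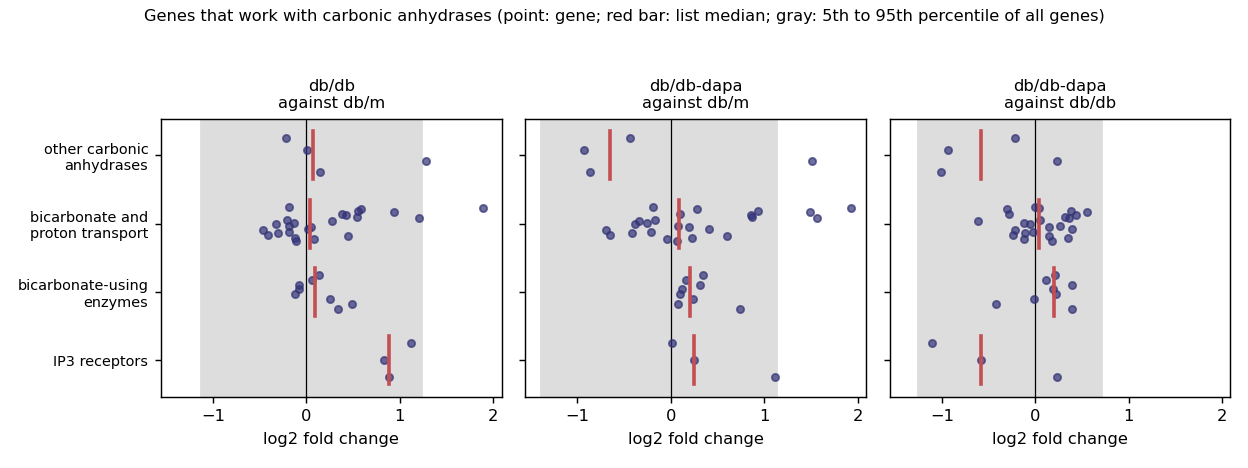
Fitted log2 fold changes of the tested genes of the 4 lists in the 3 comparisons, 1 point per gene, with the list's median as a red bar and the 5th to 95th percentile of all tested genes in gray. In treated against db/db mice every point lies within the gray band, and in the comparisons with db/m mice Slc9a3 lies farthest to the right, at 1.88 and 1.92.

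The libraries differed in the balance of long and short transcripts, and several of the 9 genes moved with it. For each mouse, the median log2 deviation of the 2023 genes with the longest transcripts (5264 bases or more) was taken minus that of the 2023 with the shortest (1979 bases or fewer). This balance was -0.36, -0.07 and -0.73 in db/m, -0.16, -0.27 and 0.69 in db/db, and -0.04, 0.39 and 0.52 in treated mice. Each treated mouse was thus above each db/m mouse, so balance and group cannot be fully told apart in these 9 mice. A fit with the balance can therefore also take up a difference between the groups. With the balance added to the fit as a covariate, a choice made after the data had been seen, Car12 changed by 0.85 (standard error 0.15) on the log2 scale per unit of balance and Car15 by -1.65 (standard error 0.27). The difference of Car12 between treated and db/m mice was then 0.56 and no longer passed, and that between db/db and db/m mice was 0.38. That of Car15 between the diabetic groups was -0.59. Against db/m mice Car15 was then higher in both groups, with 0.85 (standard error 0.24) in db/db and 0.25 (standard error 0.27) in treated mice. Car5b changed by 0.40 (standard error 0.22) per unit of balance, and its difference between treated and db/m mice was 0.66. Car3 changed by -1.17 (standard error 0.32) per unit of balance. Its difference between the diabetic groups was 2.42 (standard error 0.26) and that of treated against db/m mice 1.82. In db/db against db/m mice the difference of Car3 was -0.61. Between the diabetic groups 1 of all tested genes, Car3, passed in this fit, and it was also the 1 member that passed in treated against db/m mice. Since Car3 and the covariate were both chosen with these values known, these calls are a description only.

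**Figure D5:**
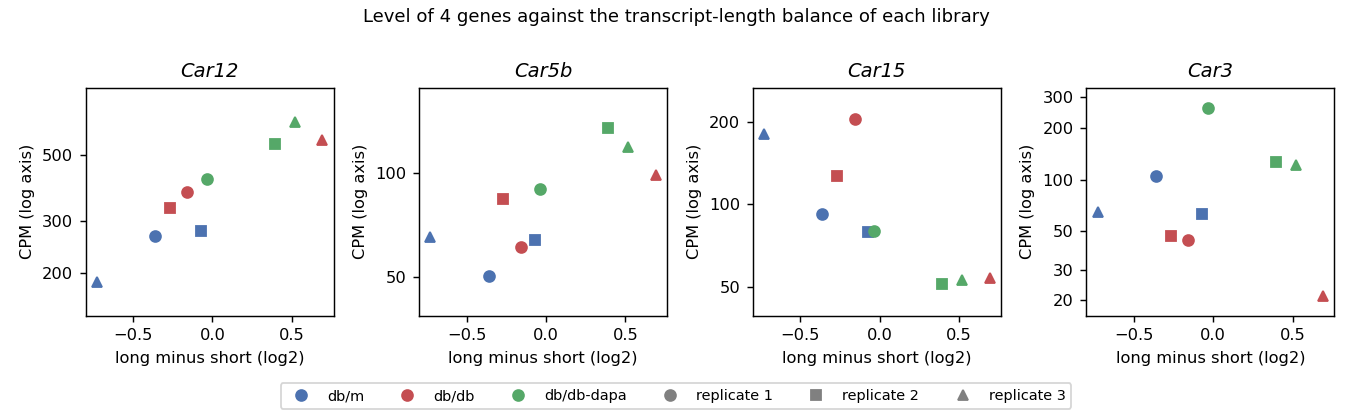
Level of Car12, Car5b, Car15 and Car3 in CPM on a log axis against the transcript-length balance of the library, long minus short on the log2 scale, with 1 point per mouse, colors for groups and shapes for replicates. Car12 is higher and Car15 lower in libraries with a higher balance, and db/db replicate 3 (balance 0.69) lies among the treated mice for Car12 and Car15 but is the lowest mouse for Car3.

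The genes most like each of the 7 well expressed members were found by Pearson's r of log2(CPM + 1) over the 9 mice, among 10516 genes with a mean of at least 5 CPM. These are descriptions, since the mice share their groups, the scaling and the length balance. Car2 was most like Gatm, an enzyme of creatine synthesis in the proximal tubule (r = 0.97), followed by Fam117a and Steap1. The nearest to Car3 were Srd5a3 (r = 0.88), Myo1e (r = 0.84) and Ethe1 (r = 0.83), weaker likenesses than those of the other members. Car4 was most like 2810004N23Rik and Ggt1, the brush border gamma-glutamyltransferase (r = 0.97 each), and Itpk1. For Car5b these were Adck3, Fbp1, an enzyme of gluconeogenesis (r = 0.96 each), and Lgalsl. Car12 was nearest to Rfx7 (r = 0.99), Acnat2 and Mcm9, Car14 to Cdkal1 (r = 0.96), Tipin and Arsa, and Car15 to Rab24 (r = 0.99), Tbc1d17 and Safb2.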

How the data were processed

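The authors prepared stranded poly(A) libraries from sorted cells, sequenced single-end reads of 101 bases and mapped them to mm10 with TopHat2 2.0.13, Bowtie2 2.2.3 and SAMtools 0.1.19. They calculated FPKM with Cufflinks 2.2.1. The deposited table, although named as FPKM, holds estimated counts per gene (85.9% of values above 0 are whole), and how the authors made them is not given in the sources used here. Here they were rounded to whole numbers, scaled with TMM against the whole library total, filtered at 0.3 CPM in at least 2 of 9 mice, and fitted for all 9 mice together, with 1 term per group, by the quasi-likelihood test of edgeR 4.0.16 (legacy form) in R 4.3.3. Adjustment was by Benjamini-Hochberg over 15583 genes. A gene passed with an adjusted p below 0.1 and a log2 fold change beyond 1 in either direction. Standard errors of fold changes were derived from the F value. The fits were also run on simulated counts that held no length balance and the same spread for all mice, and nothing is read from those runs.

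DESeq2 1.42.0, limma 3.58.1, other scalings and filters, a replicate block and leaving out each mouse were tried as alternatives. The 9 genes and all lists were chosen with earlier results of these data known. Named were all 9 genes, the 2 highest and 2 lowest of each list between db/db-dapa (treated) and db/db mice, and the 3 genes most like each of the 9 with a mean of at least 5 CPM. List genes that passed in any comparison were to be named as well, and there were 0. A gene set by this rule is not reported here. Slc9a3 and Clcn5 were added after their values were seen. Replicates are separate mice. Counting limits (3 counts) cover counting error only. Gene positions and transcripts are those of GENCODE's annotation of GRCm38, and promoter sequence is RefSeq's. Shared stretches were searched over all annotated transcripts.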

Additional observations from a re-analysis of the deposited data

How the results depend on the processing

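The fold changes of the 9 genes kept their direction under the other scalings, filters and tests and the replicate block in all 3 comparisons. With the length balance as covariate, added after the data were seen, Car15 turned from -0.93 to 0.25 and Car13 from 0.07 to -0.12 in treated against db/m mice. With 1 mouse left out the sign changed for Car13 and Car15 in db/db against db/m, for Car8 and Car13 in treated against db/m, and for Car14 in treated against db/db mice. The number of genes passing varied more, and the cause was not tested. In db/db against db/m mice 194 genes passed, 363 with DESeq2, 115 with the 6 mice compared alone, and 84 to 230 with 1 mouse left out (84 without db/m replicate 1). In treated against db/m mice 164 passed, 275 without a filter, 507 with DESeq2, 1619 with limma's mouse weights, 630 with the 6 mice alone, and 14 (without treated replicate 2) to 662 (without db/db replicate 3). In treated against db/db mice 0 passed, 13 with DESeq2, 449 with mouse weights, and 0 to 272 with 1 mouse left out (272 without db/db replicate 3, Car3 and Car15 among them, and 1 without treated replicate 2). With the length balance 407, 104 and 1 passed.

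Of the 9 genes, Car12 alone passed in treated against db/m mice. It was 2 with DESeq2 or the 6 mice alone (Car3 added), 2 with mouse weights (Car5b added), 0 with the replicate block, where the log2 difference of Car12 stayed within 1.09 to 1.18, and 0 to 2 with 1 mouse left out. Between the diabetic groups 0 passed, 1 with DESeq2 (Car3), 2 with mouse weights (Car3 and Car15), 1 with the length balance (Car3), and 0 to 2 with 1 mouse left out. Of the acid-base lists 0 passed. In db/db against db/m mice DESeq2 passed 1 (Slc9a3), the length balance 1 (Itpr3), and leaving out a mouse 0 to 2. In treated against db/m mice DESeq2 and the 6 mice alone passed 4 each, mouse weights 5, and leaving out a mouse 0 to 4. Between the diabetic groups mouse weights passed 2. The log2 difference of Cad between the diabetic groups, -0.016, was 0.047 with mouse weights, 0.014 with the replicate block and 0.020 with the length balance, and -0.093 to 0.136 with 1 mouse left out, and that of Car5a, 0.23, was -0.15 to 0.62.

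The replicate numbers are shared between groups. Correlations of deviations from group means were -0.32 to 0.56 for same-numbered and -0.61 to 0.36 for differently numbered mice. The highest were those of db/db with treated replicate 3 (0.56) and replicate 1 (0.40), whereas replicates 2 of these groups were at -0.16. These values did not settle whether the numbers pair the mice. With the replicate block 185, 167 and 0 genes passed. Scaling by library totals moved the median of all genes in db/db against db/m mice to 0.13. At 2 to 23 counts per library, Car8 and Car13 are limited by depth.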
